A study of Mus musculus with 9 samples.

Results

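The 9 genes followed here belong to the part of the CC chemokine system that draws monocytes into mouse skin. They are the ligands *Ccl2*, *Ccl3*, *Ccl4*, *Ccl6*, *Ccl7*, *Ccl8* and *Ccl9*, and the receptors *Ccr1* and *Ccr2*. They were taken by name, and all 9 have a row among the 17943 genes of the count table. Bulk RNA-Seq libraries came from the skin of 5 control and 4 *Supt6*-KO mice, with the labels naming ear as the tissue and the study's methods dorsal skin. The paper describes the *Supt6*-KO samples as lesional skin and the control samples as matched skin. *Supt6* encodes SPT6, a histone chaperone that travels with RNA polymerase II. The *Supt6*-KO mice were K14-CreERT; *Supt6* fl/fl animals given 50 mg/kg tamoxifen by intraperitoneal injection once a day on 5 days, and the controls were *Supt6* fl/fl animals given corn oil. The labels call these groups Supt6 knockdown and WT. The paper places the injections in the first telogen phase of the hair cycle. Skin was taken on day 10 after the last injection, and the age in days or weeks and the sex of the sequenced mice are not given in the sources used here. K14 drives Cre in basal keratinocytes and other K14-positive epithelia, so cells that do not express K14 are not expected to carry the deletion. The groups differ in Cre as well as in tamoxifen, and the effects of Cre, tamoxifen and loss of *Supt6* cannot be told apart. By the paper's account they also differ in lesions, which cannot be separated from these either. Each library held between 29627341 and 30967107 counts.

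CC chemokines are small secreted proteins with a pair of adjacent cysteines, and they act on receptors coupled to Gi proteins. *Ccl2* and *Ccl7* encode monocyte chemoattractant proteins that act through *Ccr2*, the receptor by which classical monocytes leave the bone marrow and enter inflamed tissue. *Ccl8* encodes another protein of that subfamily. *Ccl3* and *Ccl4* encode the macrophage inflammatory proteins 1-alpha and 1-beta. *Ccl3* acts through *Ccr1*, among other receptors. *Ccl6* and *Ccl9* are rodent genes whose products act through *Ccr1*. In skin these ligands come from keratinocytes, macrophages, fibroblasts and other cells, and the receptors are found mainly on leukocytes.

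The target gene was checked first. *Supt6* had counts of 2786, 2068, 2297, 3370 and 3798 across the control mice and of 684, 503, 478 and 791 across the *Supt6*-KO mice, without overlap. Its log2 change was -1.57, with a standard error of 0.18 and an adjusted p = 1.3e-05 in the quasi-likelihood test of edgeR. In the fit that takes out each mouse's trend with transcript length, described below, it was -0.74 (adjusted p = 0.00019 in edgeR), a difference of under 2-fold. Here and below, a gene was called higher or lower when its Benjamini-Hochberg adjusted p over all genes tested was under 0.05 and its change was at least 2-fold.

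Of the 9 genes, 8 rose in *Supt6*-KO skin and none fell. For comparison, 20.9% of all 16426 genes tested were called higher and 24.9% lower. All 9 passed the filter of 10 counts summed over the mice, but *Ccl3* and *Ccl4* passed only through the *Supt6*-KO libraries, so the number called describes the genes and is not a test of them. *Ccl3*, *Ccl4* and *Ccr1* were at least 32-fold higher, which 1.02% of all genes tested were, and *Ccl2*, *Ccl7*, *Ccl8* and *Ccl9* were at least 4-fold higher, as were 6.65% of all genes. *Ccr2* rose by little more than 2-fold, and *Ccl6* differed by less than 2-fold and was not called. The median log2 fold change was 2.98 over the 9 genes and -0.07 over all genes tested.

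**Figure D1:**
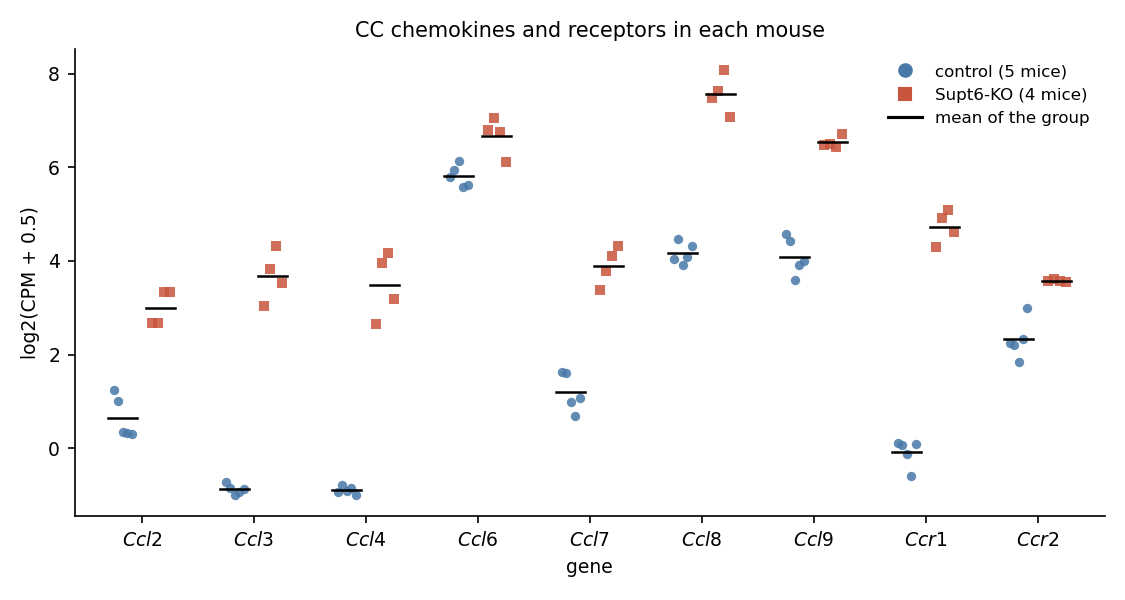
Level of each gene as log2(CPM + 0.5), with a point for each of the 5 control mice (circles) and 4 *Supt6*-KO mice (squares) and a line at the group mean. The groups separate for 8 genes and overlap for *Ccl6*.

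Values are given as CPM, the counts scaled to a common library size with edgeR's TMM factors, which try to hold most genes level. These factors lay between 1.198 and 1.315 in the controls and between 0.6738 and 0.9098 in the *Supt6*-KO mice, so the scaling carries weight here. With plain library totals the median log2 change over all tested genes moved from -0.07 to -0.76, and 1470 genes were called higher and 6802 lower, in place of 3427 and 4088. Transcript length also went with the fold change: in the 4096 genes with the shortest transcripts, from 204 to 1896 bases, the median log2 fold change was 0.785 and 42.1% were called higher, and in the 4092 with the longest, from 4527 bases on, the median was -0.804. The transcripts of 6 of the 9 genes are among those shortest ones, namely *Ccl2*, *Ccl3*, *Ccl4*, *Ccl6*, *Ccl7* and *Ccl8*. What part length plays in their changes was not tested beyond a fit that takes out each mouse's trend with length. Under that fit 8 genes were called higher, against 18.5% of all genes, and under library totals 7 were, against 8.95% of all genes.

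The ligands lie in a pair of gene clusters on chromosome 11, and the receptors lie in a single cluster on chromosome 9 (GRCm38, RefSeq annotation). *Ccl2* (chr11:82035577-82037452), *Ccl7* (chr11:82045712-82047525) and *Ccl8* (chr11:82115185-82116799) are on the forward strand within 144.2 kb that also hold *Ccl11*, *Ccl12* and *Ccl1*. *Ccl9* (chr11:83572917-83578636), *Ccl6* (chr11:83587886-83593087) and *Ccl3* (chr11:83647843-83649378) are on the reverse strand and *Ccl4* (chr11:83648624-83664683) on the forward strand of a 138.9 kb stretch that opens with *Ccl5*. The RefSeq span of *Ccl4* overlaps that of *Ccl3* on the opposite strand, whereas the GENCODE M21 models of these genes do not overlap. Whether the counting used strand is not given in the sources used here, so reads from that shared stretch could have been credited to either gene. *Ccr1* (chr9:123962126-123968692, reverse strand) and *Ccr2* (chr9:124101918-124109140, forward strand) lie in the 341.9 kb from *Ccr9* to *Ccr2*, with *Cxcr6*, *Xcr1*, *Ccr1l1*, *Ccr3* and *Fyco1*.

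Promoter sequences were read for the 6 genes that RefSeq's promoter table (GRCm38.p6) holds. The 100 bases before the transcript start are shown for these 6 (all but *Ccl2*, *Ccl4* and *Ccl7*), so that *Ccl3*, *Ccr1*, *Ccl8* and *Ccl9* can be set beside *Ccl6* and *Ccr2*, which changed least of the 9. Capitals mark TATAA, the NF-kB consensus and the AP-1 site TGANTCA, each searched on both strands.
Ccl3, chr11:83649379-83649478, reverse strand: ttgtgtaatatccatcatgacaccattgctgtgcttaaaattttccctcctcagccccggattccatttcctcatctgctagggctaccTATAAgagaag
Ccr1, chr9:123968693-123968792, reverse strand: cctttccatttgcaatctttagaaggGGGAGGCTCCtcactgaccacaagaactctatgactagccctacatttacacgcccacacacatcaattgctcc
Ccl8, chr11:82115085-82115184, forward strand: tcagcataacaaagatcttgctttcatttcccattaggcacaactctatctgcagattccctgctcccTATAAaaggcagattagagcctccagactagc
Ccl9, chr11:83578637-83578736, reverse strand: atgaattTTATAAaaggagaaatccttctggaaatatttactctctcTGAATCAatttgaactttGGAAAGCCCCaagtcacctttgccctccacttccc
Ccl6, chr11:83593088-83593187, reverse strand: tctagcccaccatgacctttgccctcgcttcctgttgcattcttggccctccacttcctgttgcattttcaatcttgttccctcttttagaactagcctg
Ccr2, chr9:124102083-124102182, forward strand: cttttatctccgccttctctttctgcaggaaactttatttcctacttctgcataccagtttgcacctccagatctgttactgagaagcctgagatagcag
Within 250 bases before the start, the NF-kB consensus was found in *Ccl9*, on the reverse strand at bases -35 to -26, and in *Ccr1*, on the forward strand at bases -74 to -65. It occurs in 7.25% of all 32851 promoters of the table. TATAA was found in *Ccl3*, *Ccl8*, *Ccl9* and *Ccr2*, in the last only further out than the bases shown, and in 22.8% of all promoters. In *Ccl9* the TATAA matches of the opposite strands overlap. The AP-1 letters, which read alike on both strands, were found in *Ccl9* alone of the 6 and in 6.75% of all promoters. GAAANNGAAA, the letters of the interferon-stimulated response element, was found in none of the 6 and in 2.98% of all. These matches describe letters and not binding. The RefSeq transcript start used for *Ccr2* lies inside the span of the gene.

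All 3 monocyte chemoattractant genes rose. *Ccl2* (NCBI gene 20296) had counts of 70, 55, 28, 28 and 29 across the control mice and of 141, 122, 211 and 268 across the *Supt6*-KO mice. Its level was 1.13 ± 0.527 CPM (SD, n = 5) in control skin and 7.76 ± 2.17 CPM (SD, n = 4) in *Supt6*-KO skin, a log2 change of 2.78, with a standard error of 0.33 and an adjusted p = 1.8e-05 from edgeR. Every *Supt6*-KO mouse was above every control mouse, as in 28.9% of all genes tested. With the length trend the change of *Ccl2* was 1.57. *Ccl7* (NCBI gene 20306), its neighbour, had 97, 94, 54, 41 and 63 counts against 238, 278, 362 and 543. Its log2 change was 2.98, with a standard error of 0.29 and an adjusted p = 4.5e-06 from edgeR. The fit with the length trend gave 1.76 for *Ccl7*. The controls with the most *Ccl7* were those with the most *Ccl2*, controls 1 and 2, and KO 4 had the most raw counts of both genes. *Ccl8* (NCBI gene 20307) was far more abundant, with 594, 790, 528, 611 and 767 counts against 4245, 4137, 5857 and 3752. It went from 17.6 ± 2.87 to 195 ± 55.6 CPM, a log2 change of 3.46, with a standard error of 0.20 and an adjusted p = 2.5e-07 from edgeR, and 1.72 with the length trend, for a transcript of 511 bases. The lowest *Supt6*-KO mouse, KO 4, stood at 135 CPM and the highest control at 21.6 CPM.

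*Ccl3* and *Ccl4* were close to absent from control skin. *Ccl3* (NCBI gene 20302) had counts of 4, 2, 0, 1 and 2 across the control mice and of 186, 286, 426 and 307 across the *Supt6*-KO mice. Summed and scaled, the counts differed by a ratio of 264, with a 95% exact (Clopper-Pearson) counting interval of 139 to 579, and edgeR gave a log2 change of 7.96, with a standard error of 0.46 and an adjusted p of 2.2e-07. *Ccl4* (NCBI gene 20303) had 1, 3, 1, 2 and 0 counts against 139, 315, 381 and 241. The ratio was 303, with a counting interval of 147 to 756, and the log2 change was 8.14, with a standard error of 0.51 and an adjusted p = 3.9e-07 from edgeR. The controls held 9 counts of *Ccl3* and 7 of *Ccl4* in all, so the size of the change rests on these few reads, and the intervals cover counting error only. Both genes passed the count filter only through the *Supt6*-KO libraries, so their p-values are given as a description. With no filter the log2 changes were 7.95 for *Ccl3* and 8.13 for *Ccl4*. KO 3 had the most of both genes and KO 1 the least.

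*Ccl9* rose and *Ccl6*, next to it, changed little. *Ccl9* (NCBI gene 20308) had counts of 867, 763, 415, 537 and 604 across the control mice and of 2122, 1887, 1887 and 2890 across the *Supt6*-KO mice. It stood at 17.1 ± 4.81 CPM against 92.3 ± 7.85 CPM, a log2 change of 2.43, with a standard error of 0.19 and an adjusted p = 1.4e-06 from edgeR. The lowest *Supt6*-KO mouse, at 86.3 CPM, was well above the highest control, at 23.2 CPM. *Ccl6* (NCBI gene 20305) had 2057, 2237, 2513, 1754 and 1928 counts against 2626, 2754, 2333 and 1921. After scaling this was 56.5 ± 9.12 CPM against 104 ± 26.2 CPM, a log2 change of 0.89, with a standard error of 0.18 and an adjusted p = 0.0011 from edgeR. The groups overlapped, since KO 4 stood at 69.0 CPM and control 3 at 69.6 CPM. The *Ccl6* difference did not pass with library totals, where it was 0.16 (adjusted p = 0.35 in edgeR), or with the length trend, where it was 0.24 (adjusted p = 0.16).

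The receptors moved by very different amounts. *Ccr1* (NCBI gene 12768), the receptor for *Ccl3*, *Ccl6* and *Ccl9*, had counts of 22, 20, 15, 6 and 22 across the control mice and of 456, 617, 728 and 672 across the *Supt6*-KO mice. It rose from 0.455 ± 0.177 to 26.5 ± 6.24 CPM, a log2 change of 5.85, with a standard error of 0.31 and an adjusted p = 1.5e-07 from edgeR. *Ccr2* (NCBI gene 12772) had 158, 150, 112, 167 and 295 counts against 273, 245, 250 and 312. This was 4.69 ± 1.66 CPM against 11.5 ± 0.226 CPM, a log2 change of 1.29, with a standard error of 0.22 and an adjusted p = 0.00033 from edgeR. Before scaling, control 5 had more *Ccr2* counts than 3 of the *Supt6*-KO mice, and the groups separated only after scaling. The *Ccr2* log2 fold change was 0.58 with library totals (adjusted p = 0.061 in edgeR), which did not pass, and 2.03 with the length trend (adjusted p = 5e-06). The log2 ratio of *Ccr1* to *Ccr2* counts within a mouse, which no scaling factor enters, was higher by 4.57 in *Supt6*-KO skin (exact permutation test, two-sided p = 0.0159, adjusted over the 21 pairs of genes tested 0.0223).

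**Figure D2:**
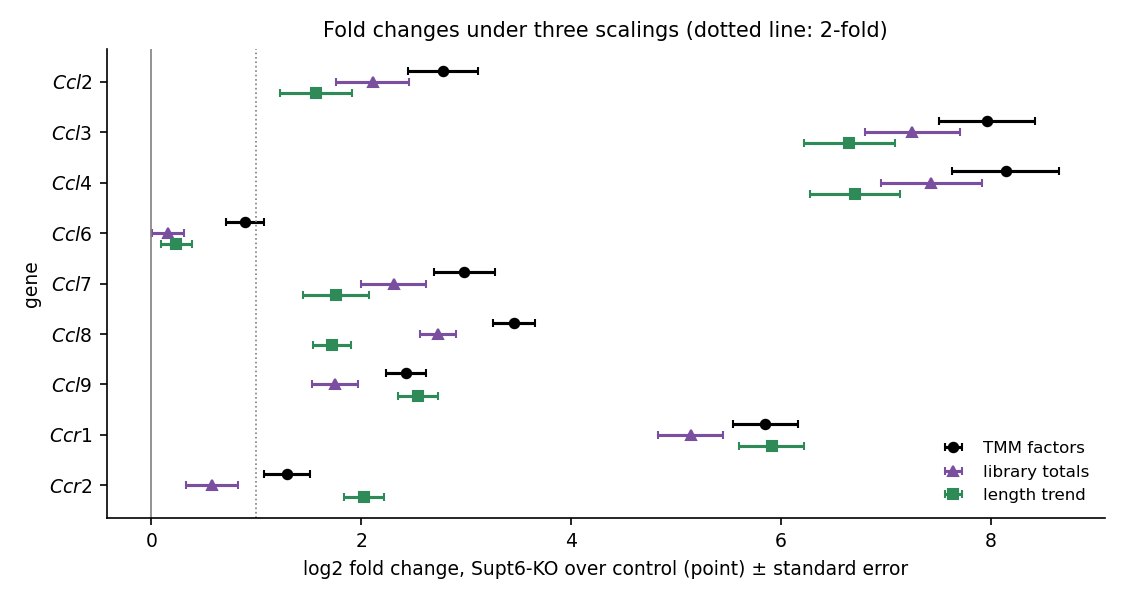
Log2 fold change of *Supt6*-KO over control skin for each gene (points) with its standard error (bars), under TMM factors, library totals and the fit with a length trend. *Ccl6* falls to 0.16 and 0.24 under the other scalings, and *Ccr2* lies between 0.58 and 2.03, while *Ccl3*, *Ccl4* and *Ccr1* are above 5 under all 3.

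The same ratio was taken for all 36 pairs, a comparison added after the values had been seen. Only the 21 pairs without *Ccl3* and *Ccl4* were tested, since those genes passed the filter only through the *Supt6*-KO libraries. In 15 of the 21 the ratio differed between the groups (exact permutation, two-sided, p = 0.0159, adjusted 0.0223), and the doubled-tail form used here gives no smaller p with 5 mice against 4. These are the tested pairs whose groups did not overlap, as was the case for 55.9% of all pairs of genes tested. *Ccl2*, *Ccl7* and *Ccl8* were among the pairs that did not pass: the log2 ratio of *Ccl2* to *Ccl7* was -0.76 ± 0.27 in controls and -0.93 ± 0.21 in *Supt6*-KO mice, and the differences against *Ccl8* were -0.60 for *Ccl2* and -0.43 for *Ccl7*. *Ccl3* to *Ccl4* differed by -0.02, but the control ratio had an SD of 1.65 on its few reads. Against *Ccl9*, *Ccl2* differed by 0.36 and *Ccl7* by 0.53, and neither passed. *Ccl6* to *Ccr2*, the genes that changed least, differed by -0.49 (adjusted p = 0.26 in the permutation test). The ratio of *Ccl6* to each of *Ccl2*, *Ccl7*, *Ccl8*, *Ccl9* and *Ccr1* was lower in *Supt6*-KO mice, with differences of -1.61 against *Ccl9*, -2.14 against *Ccl7*, -2.57 against *Ccl8* and -5.06 against *Ccr1*.

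The make-up of the ligand transcripts changed with these unequal rises. In controls *Ccl6* gave 55.7, 56.7, 71.0, 59.0 and 56.8% of the summed CPM of the 7 ligands, and in *Supt6*-KO mice 27.1, 28.2, 20.4 and 19.4%. *Ccl8* gave 18.8 ± 3.22% in controls and 43.8 ± 5.53% in *Supt6*-KO mice. The share of *Ccl9* was 18.1 ± 4.22% against 21.7 ± 5.43%, with overlapping groups. *Ccl3* and *Ccl4* together went from a share near 0 to 2.91 ± 0.746% and 2.60 ± 0.876%. The summed level of the ligands was 94.3 ± 10.9 CPM in control skin, against 439 ± 73.3 CPM after deletion. These are shares of reads, so a long transcript counts for more than a short one.

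Levels of different genes can be compared only per length, for which the authors' TPM values are at hand in the 5 controls and in KO 4. In controls *Ccl8* was highest at 148 TPM on average (108 to 192), followed by *Ccl6* at 79.6 TPM (70.2 to 89.6). Next came *Ccl9* at 10.1 TPM (6.15 to 13.7) and *Ccl7* at 6.19 (3.85 to 8.75). *Ccl2* at 3.66 (2.29 to 6.22) and *Ccr2* at 2.35 (1.36 to 4.34) followed. From *Ccl9* to *Ccr2* the ranges of neighbours overlapped. Within every control, though, *Ccl9* was above *Ccl7* and *Ccl7* above *Ccl2*, and *Ccl2* was above *Ccr2* in all but control 5. *Ccr1* at 0.288 TPM, *Ccl4* at 0.172 and *Ccl3* at 0.168 were lowest and overlapped one another. In KO 4 the order was *Ccl8* at 594 TPM, *Ccl6* at 49.6, *Ccl7* at 33.2, *Ccl9* at 30.7, *Ccl4* at 21.0, *Ccl3* at 19.2, *Ccl2* at 16.1, *Ccr1* at 7.65 and *Ccr2* at 2.72. On this scale, which has no correction for composition, *Ccl6* was below every control in KO 4 and *Ccr2* was within the range of the controls.

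The *Supt6*-KO mice did not all show the same extent. KO 3 had the highest CPM of *Ccl2*, *Ccl3*, *Ccl4*, *Ccl8* and *Ccr1*, and KO 1 the lowest of *Ccl3*, *Ccl4*, *Ccl7* and *Ccr1*. KO 4 was highest for *Ccl7* and *Ccl9* and lowest for *Ccl6*, *Ccl8* and *Ccr2*. *Ccr2* varied least, from 11.2 to 11.8 CPM.

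Many monocyte and macrophage markers were also higher in *Supt6*-KO skin, fewer of them under the other scalings. Of 16 markers, 10 were called higher, 2 lower, 3 passed with less than a 2-fold change and 1 did not pass. Their median log2 fold change was 1.07. Library totals gave 6 higher and 3 lower with a median of 0.39, and the length trend 6 higher and 1 lower with a median of 0.60. *Lyz2*, lysozyme of myeloid cells and the most abundant marker, rose from 92.9 ± 18.5 to 641 ± 207 CPM, and *Cd14*, a receptor for lipopolysaccharide, had the largest log2 fold change at 4.05. *Csf1r*, the receptor on which macrophages depend for survival, fell from 41.9 ± 12.2 to 11.8 ± 3.17 CPM. The summed level of the markers was 426, 384, 308, 423 and 561 CPM in the controls and 1107, 1095, 1459 and 903 CPM in the *Supt6*-KO mice, and none of the markers was at 0 in a whole group. In bulk tissue a change in the number of cells of a type and a change in the RNA of each cell cannot be told apart, and what part more macrophages play in the rise of the chemokine genes was not tested.

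The level of each gene relative to these markers was therefore computed in each mouse, as log2(CPM + 0.5) of the gene minus the mean of the 16 markers. That mean itself was 3.52 ± 0.34 in controls and 4.68 ± 0.17 in *Supt6*-KO mice. *Ccr2* relative to the markers was -1.29, -1.20, -1.26, -1.17 and -1.04 in the controls and -1.10, -0.90, -1.34 and -1.07 in the *Supt6*-KO mice. The difference of 0.09 was within the spread between mice (exact permutation test, two-sided p = 0.381, adjusted over the 9 tests 0.397). *Ccl6* relative to the markers was 2.3 ± 0.54 against 1.99 ± 0.44, a difference of -0.31 that did not pass either (p = 0.397 in the exact permutation test). The other 7 genes were higher relative to the markers in every *Supt6*-KO mouse than in every control. For *Ccl2*, *Ccl7*, *Ccl8*, *Ccl9* and *Ccr1* the exact permutation test gave p = 0.0159 each, adjusted over the 9 tests 0.0204. *Ccl3* and *Ccl4*, which passed the count filter only through the *Supt6*-KO libraries, are given as a description. Their p-values are counted in the adjustment over the 9 tests, which would give a larger value without them. On this scale 2.53% of all genes tested were above every control in every *Supt6*-KO mouse. The differences were 3.65 for *Ccr1*, 2.23 for *Ccl8*, 1.53 for *Ccl7*, 1.27 for *Ccl9* and 1.19 for *Ccl2*. Those of *Ccl3* and *Ccl4*, at 3.39 and 3.23, depend on the pseudocount: with 0.1 in place of 0.5 they were 5.17 and 5.07, above the 4.38 of *Ccr1*, and with 1 they were 2.59 and 2.42, below its 3.14. The markers did not move as one, so this is a level relative to a list and not a level per cell.

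**Figure D3:**
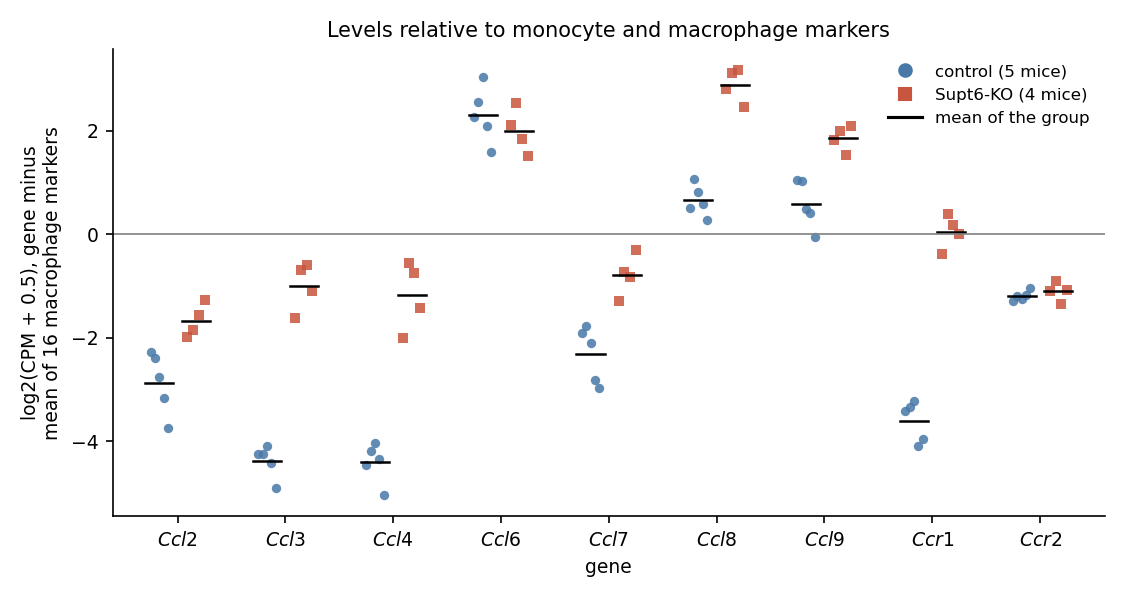
Level of each gene relative to the mean of 16 monocyte and macrophage markers, on the log2(CPM + 0.5) scale, with a point for each mouse and a line at the group mean. The groups overlap for *Ccr2* and *Ccl6* and separate for the other 7 genes.

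Markers of other cell types moved as well, and their part in the changes of the chemokine genes was not tested. Of 11 neutrophil markers 10 could be tested, and 7 were called higher and 1 lower, or 6 higher with library totals and 2 lower with the length trend. Their summed level was 22.4, 20, 21.9, 19.3 and 16.7 CPM in the controls and 52.9, 53.1, 113 and 44.5 CPM in the *Supt6*-KO mice, so KO 3, with the most *Ccl3* and *Ccl4*, also had the most of these. *Mmp9*, a gelatinase and the most abundant of them in controls, stood at 12.6 ± 1.31 against 17.4 ± 4.91 CPM, *Retnlg* at 0.212 ± 0.183 against 20.6 ± 22.2 CPM, and *Mpo*, myeloperoxidase, fell by 4.62 on the log2 scale. *Ltf* was at 0 in all controls, and *Ly6g*, which defines neutrophils in mice, had counts of 0, 1, 0, 0 and 0 across the control mice and of 4, 0, 15 and 1 across the *Supt6*-KO mice. *Ltf*, *Ly6g* and *Ngp*, all among the markers called higher, passed the count filter only through the *Supt6*-KO libraries, so the number called is a description.

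Dendritic and Langerhans cell markers went the other way, with 5 of 7 called lower, or all 7 with library totals, and none higher. Their sum was 993, 1044, 989, 960 and 834 CPM in the controls and 344, 209, 178 and 95.7 CPM in the *Supt6*-KO mice. *Cd74*, the invariant chain and the most abundant, fell from 442 ± 29.0 to 50.3 ± 28.7 CPM, and *H2-Aa*, an MHC class II chain, from 252 ± 22.3 to 80.3 ± 36.7 CPM. Of 7 T cell markers 2 were lower, or 4 with the length trend and 3 with library totals, and 1 higher: *Cd3g* fell by 2.65 and *Cd3e* by 4.13 on the log2 scale, and *Cd8a* rose by 1.88 at under 1 CPM. Their sum was 31.4, 37.8, 39.4, 32.1 and 28.7 CPM in the controls and 16.4, 10.6, 11.4 and 9.20 CPM in the *Supt6*-KO mice. None of the 6 mast cell markers was called, though 1 was lower under each of the other scalings. The most abundant of these in controls, *Mcpt4*, was at 44.2 ± 14.7 against 39.4 ± 7.56 CPM, and *Cma1* at 29.4 ± 8.67 against 44.2 ± 4.51 CPM. Among 4 genes of all leukocytes, *Cd53* rose by 1.49 (0.78 with library totals, which is under 2-fold), *Laptm5* fell by 1.83, and *Coro1a* was at 21.5 ± 1.79 against 29.4 ± 8.19 CPM.

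Marker RNA of other tissues differed as well, and whether the tissue content differed was not tested. Of 6 keratinocyte markers 1 was called higher and 1 lower, or 2 lower with library totals: *Krt1* rose by 3.65 and *Trp63* fell by 1.21 on the log2 scale (-0.57 with the length trend), and *Krt10*, the most abundant, stood at 14343 ± 730 against 16352 ± 5760 CPM. All 4 skeletal muscle markers were lower, with *Acta1* at 1473 ± 217 against 234 ± 37.1 CPM, *Tnnt3* at 699 ± 123 against 153 ± 18.3 CPM and *Myh4* falling by 4.38. Their sum lay between 2665 and 3559 CPM in controls and between 460 and 641 CPM in *Supt6*-KO mice. The 3 cartilage markers that could be tested were lower, with *Acan* at 154 ± 83.8 against 13.2 ± 2.02 CPM, *Col9a1* at 85 ± 24.1 against 12.2 ± 2.06 CPM and *Col2a1* falling by 3.86. Their sum lay between 196 and 550 CPM in controls and between 28.3 and 34.2 CPM in *Supt6*-KO mice, where *Matn1* was at 0. Cartilage is present in ear and is not a part of dorsal skin. Of 5 fibroblast markers 2 were lower, or 4 with library totals, with *Col1a2* falling by 2.37 and *Col1a1* by 3.64, and *Dcn* stood at 744 ± 256 against 442 ± 62.6 CPM. Of 4 endothelial markers 3 were lower, or 1 with the length trend, with *Pecam1* falling by 1.08 and *Cdh5* by 2.11.

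The remaining genes of the clusters followed the 9 genes in part. In the cluster of *Ccl2*, 5 of 6 genes were called higher, against 20.9% of all genes tested. *Ccl2*, *Ccl7* and *Ccl8* themselves are among the 5. *Ccl12*, which encodes another ligand of *Ccr2*, had counts of 14, 21, 16, 5 and 17 across the control mice and of 73, 81, 107 and 130 across the *Supt6*-KO mice, a log2 change of 3.38, with a standard error of 0.32 and an adjusted p = 4.3e-06 from edgeR. *Ccl1*, a ligand of *Ccr8*, had a log2 fold change of 2.71 on 1 to 24 counts, and 1.17 with the length trend (adjusted p = 0.13 in edgeR), which did not pass. *Ccl11*, an eosinophil attractant between *Ccl7* and *Ccl12*, had 163, 150, 142, 106 and 159 counts against 50, 51, 92 and 57. Its log2 fold change of -0.52 did not pass (adjusted p = 0.076 in edgeR), but it was called lower with library totals at -1.24 (adjusted p = 0.0006) and with the length trend at -1.51 (adjusted p = 0.00012). In the cluster of *Ccl3*, 4 of 5 genes were called higher, *Ccl6* being the other one. *Ccl9*, *Ccl3* and *Ccl4* are among the 4. *Ccl3* and *Ccl4* passed the count filter only through the *Supt6*-KO libraries, so this count is a description. *Ccl5*, which acts through *Ccr1* among other receptors, rose by 2.41 on the log2 scale from no more than 9 counts in any control. With the length trend it stood at 0.78 and did not pass (adjusted p = 0.19 in edgeR). Under that fit 4 of 6 genes of the first cluster and 3 of 5 of the second were higher, against 18.5% of all genes.

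Between *Ccr9* and *Ccr2*, both included, 5 of 7 tested genes were called higher and *Fyco1*, which encodes no chemokine receptor, was lower. *Ccr1* and *Ccr2* are among the 5, and 20.9% of all genes tested were called higher. *Ccr3*, an eosinophil receptor, had 1 count over all controls and 10, 2, 4 and 26 in the *Supt6*-KO mice, a ratio of 82.8 with a counting interval of 14.1 to 3350. It is among the 5 but passed the count filter only through the *Supt6*-KO libraries, so its call is a description. *Ccr9* rose by 1.42 and *Xcr1* by 1.41, against 0.68 and 0.71 with library totals. Library totals left 2 genes of this cluster called higher, against 8.95% of all genes. *Fyco1* was at -1.30, and at -0.35 with the length trend, and *Cxcr6* had a log2 fold change of -0.19 (adjusted p = 0.67 in edgeR). *Ccr1l1* had at most 2 counts in any mouse and was not tested. *Ccr1* shares 0.642% of its 31-base stretches with *Ccr1l1* and *Ccr3*, and *Ccr2* shares 4.02% with transcripts of 641 genes, so the reads of the receptors could be told apart along most of their length. In the GENCODE M21 transcripts *Ccl2*, *Ccl3*, *Ccl4*, *Ccl7* and *Ccl8* share no such stretch with any other gene, *Ccl6* shares 1.28% and *Ccl9* 3.80%. For *Ccl3* and *Ccl4* this does not settle the overlap of their RefSeq spans described above.

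In a list of 13 other CC ligands, 7 were called higher and 1 lower, with a median log2 fold change of 1.01. With the length trend 3 were higher (*Ccl12*, *Ccl20* and *Ccl25*) and 4 lower (*Ccl11*, *Ccl21a*, *Ccl27a* and *Ccl28*), and the median was 0.04. Library totals left 5 higher and 2 lower. Besides *Ccl1*, *Ccl5* and *Ccl12*, the higher genes were *Ccl25* at 2.26, *Ccl20*, the ligand of *Ccr6*, at 1.93, *Ccl19*, a ligand of *Ccr7*, at 1.32, and *Ccl17*, a ligand of *Ccr4*, at 1.01 on the log2 scale, the last turning to -0.63 with the length trend. *Ccl19* was at 0.04 with the length trend and 0.64 with library totals, and passed under neither. *Ccl28*, made by epithelia, fell by 1.46. *Ccl24* had a log2 fold change of 0.93 and passed the adjusted threshold only. *Ccl21a*, the most abundant of these ligands at 37.3 ± 10.6 against 39.8 ± 2.26 CPM, did not pass, nor did *Ccl27a* at 11.2 ± 4.58 against 10.5 ± 4.62 CPM or *Ccl22* at 2.33 ± 0.507 against 2.28 ± 1.11 CPM. The list leaves out *Ccl21c*, *Ccl21d* and *Ccl27b*, near-identical copies of *Ccl21a* and *Ccl27a* whose reads can be split among them, so the values of all 5 are uncertain. *Ccl21c* and *Ccl21d* had log2 fold changes of -0.18 and -0.04 and did not pass, and *Ccl27b* was called lower at -2.36 (adjusted p = 0.041 in edgeR), with overlapping groups. Of 7 other CC receptors 3 were called higher and none lower, namely *Ccr3*, *Ccr7* at 1.5 and *Ccr9*. Among these, *Ccr3* passed the count filter only through the *Supt6*-KO libraries. Library totals gave 1 higher, *Ccr3*, and 3 lower, *Ccr4* at -1.66, *Ccr6* at -2.04 and *Ccr8* at -2.22, and with the length trend 3 were higher and *Ccr8* was lower. *Ccr4*, the most abundant in controls, stood at 14.4 ± 2.34 against 7.75 ± 4.81 CPM and did not pass (adjusted p = 0.095 in edgeR). *Ccr6*, *Ccr8* and *Ccr10* were under 1 CPM in both groups and did not pass.

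Of 5 atypical chemokine receptors, which bind chemokines without G protein signaling, 2 were called lower and 1 higher. *Ackr2*, the scavenger of inflammatory CC chemokines such as *Ccl2*, *Ccl3* and *Ccl4*, had counts of 199, 143, 138, 173 and 215 across the control mice and of 51, 19, 23 and 25 across the *Supt6*-KO mice (log2 change -1.89 ± 0.28 SE, edgeR's adjusted p = 1.1e-04). *Ackr4*, which takes up *Ccl19*, *Ccl21a* and *Ccl25*, fell from 79.9 ± 10.6 to 25.5 ± 13 CPM. *Ackr3* and *Ackr1* had log2 fold changes of -0.69 and -0.95 and passed the adjusted threshold without reaching 2-fold. *Ccrl2*, a receptor-like gene induced in activated cells, rose by 1.83. Under library totals 4 of the 5 were lower and with the length trend 3, *Ackr1* being one of them in both.

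Genes that act after the receptors moved in both directions. Of 20 genes of chemokine receptor signaling, 1 was called higher and 5 lower, and 10 passed with less than a 2-fold change. None was higher and 11 were lower with library totals, where *Nup85* was at 0.38 (adjusted p = 0.19 in edgeR), and the length trend gave 2 higher and 3 lower. *Gnai3*, the most abundant Gi subunit here, was at 390 ± 54.5 against 764 ± 114 CPM, a log2 fold change of 0.97, and *Rac1*, a GTPase of cell movement, was at 289 ± 20.2 against 360 ± 96.4 CPM and did not pass. *Nup85*, whose product has also been described as a partner of *Ccr2*, rose by 1.03, and *Arrb1*, an arrestin that ends receptor signaling, fell by 2.98 on the log2 scale. Of 12 genes of monocyte adhesion and survival, 1 was higher and 6 lower, or 4 lower with the length trend and 7 with library totals. *Csf2*, the growth factor GM-CSF, rose by 2.43 at under 1 CPM. *Il34* and *Csf1*, the ligands of *Csf1r*, fell from 58.8 ± 5.44 to 19.7 ± 7.16 CPM and from 22.2 ± 4.04 to 8.87 ± 1.79 CPM. *Cx3cr1*, the receptor of patrolling monocytes and of many resident macrophages, had counts of 86, 69, 86, 69 and 91 across the control mice and of 11, 4, 5 and 3 across the *Supt6*-KO mice, a fall of 3.11.

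Of 13 inducing cytokines and NF-kB genes, 5 were called higher and 3 lower, against 4 and 7 with library totals. *Il1b*, an inducer of *Ccl2*, *Ccl3* and *Ccl4* in many cells, had counts of 33, 29, 17, 12 and 13 across the control mice and of 1230, 1292, 2755 and 1864 across the *Supt6*-KO mice. What part it plays in the rise of the chemokine genes was not tested. The other 4 higher genes were *Il1a*, *Tnf*, *Il6* and *Ifng*, the last at 0 in all controls. *Ifng* thus passed the count filter only through the *Supt6*-KO libraries, and its call is a description. *Rela*, the p65 subunit of NF-kB, fell by 1.36. *Nfkbia* and *Nfkb1*, the most abundant of the list by CPM in controls, had log2 fold changes of -0.57 and -0.62.

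Among 13555 genes with a mean of at least 1 CPM, the gene whose log2(CPM + 0.5) followed each of the 9 most closely over the 9 mice was noted, as a description. These were *Slfn2* for *Ccl8* (Pearson r = 0.998), *Csta2* for *Ccl3* (0.999), *Catsperz* for *Ccl4* (0.998), *Cd5* for *Ccr1* (0.997), *Gfer* for both *Ccl2* (0.991) and *Ccl7* (0.997), *Relt* for *Ccl9* (0.992), *Zfp748* for *Ccl6* (0.995) and *Mrc1*, a macrophage marker, for *Ccr2* (0.993). The mice form a pair of groups, which by itself gives a high r, and r takes no account of size: *Gfer* rose by 1.01 on the log2 scale where *Ccl7* rose by 2.98.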

How the data were processed

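Per the labels and the study's methods, the authors mapped paired-end reads on mm10 (Bowtie2 2.3.4.3), ran RSEM 1.3.1, and deposited its estimated counts for 9 mice, 9% of which are not whole numbers. TPM values were deposited by the authors for 6 mice, the controls and KO 4. The submitters' processing notes also name HISAT and DESeq2 1.4.5. The annotation release and the strand setting are not given in the sources used here. Of 17943 genes, 17850 were matched to RefSeq names. Estimated counts were rounded, genes with under 10 counts over the 9 mice were left out (16426 remained), and groups were compared with edgeR 4.0.16 in R 4.3.3 (TMM factors, quasi-likelihood test, no covariates). The standard error is the size of the log2 fold change divided by the square root of F. Exact permutation tests over the 126 splits of the mice used log2(CPM + 0.5) and scipy 1.17.1. Figures were drawn with matplotlib 3.10.9.

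The 9 genes and the other lists were chosen with earlier results of these data known. The text gives each of the 9 genes, *Supt6* and the listed CC ligands, CC receptors and atypical receptors. From each other list it gives the 2 most abundant genes and those with the largest calls up and down, and for each of the 9 genes the most similar gene. Some genes that this rule would name are not reported here. Genes named beyond this rule (*Ccl21c*, *Ccl21d*, *Ccl27b*, *Fyco1*, *Cxcr6*, *Xcr1*, *Ccr1l1*, *Il1a*, *Tnf*, *Il6*, *Ifng*, *Ly6g*, *Ltf*, *Ngp* and *Matn1*) complete a cluster, a list or a count and were added after their values were seen. Alternatives tried were DESeq2 1.42.0, plain library totals, upper-quartile and DESeq2 size factors, other filters, the 50 most abundant genes left out, a replicate block, a length trend over GENCODE M21 transcripts, a test against a 2-fold change, unadjusted p, and each mouse left out. On simulated counts for the comparison of *Supt6*-KO with control, edgeR recovered 99% of 200 changed genes and called 3 unchanged ones among 16338, and DESeq2 recovered 99.5% and called 6. The simulation changed few genes, as many up as down, and held no trend with transcript length. In the data 71.0% of genes passed the adjusted threshold, so it cannot show how the calls fare under the scaling and length effects seen here. The single-cell and ChIP-Seq data of the study were not analysed here.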

Additional observations from a re-analysis of the deposited data

Results flagged for a closer look

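In each group and each quantity, the sample farthest out was set against the range of its group (Dixon's criterion at 95%), for the 9 genes, *Supt6* and the summed level of 17 other lists. Of 54 groups examined 2 stood out, where about 2.7 are expected by chance, and none of them was a group of the 9 genes. KO 3 had 113 CPM of the neutrophil markers in sum, where the median of the *Supt6*-KO mice was 53.0 CPM. KO 2 had 99.7 CPM of the mast cell markers in sum, below the median of 135 CPM.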

How the results depend on the processing

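Across the alternatives, *Ccl2*, *Ccl3*, *Ccl4*, *Ccl7*, *Ccl8*, *Ccl9* and *Ccr1* kept their direction and stayed past the adjusted threshold wherever they could be fitted. For *Ccl3* and *Ccl4* this is a description, as above. *Ccl6* did not pass with library totals (0.16), the length trend (0.24) or the test against a 2-fold change (0.89), and *Ccr2* did not pass with library totals (0.58) or the test against a 2-fold change (1.29). With at least 10 counts in every mouse 5 of the 9 genes were called higher, because that filter leaves out *Ccl3*, *Ccl4* and *Ccr1*. Over all genes tested, library totals gave 1470 higher and 6802 lower genes, and the test against a 2-fold change 2271 higher. With 1 mouse left out, 8 to 9 of the 9 genes were called higher, the 9th being *Ccl6* without KO 4, and the largest adjusted p of any of the 9 was 0.004. The log2 fold change stayed between 0.74 and 1.04 for *Ccl6*, between 1.17 and 1.52 for *Ccr2* and between 7.83 and 8.57 for *Ccl4*. The levels relative to macrophage markers kept their direction with other pseudocounts, library totals, without resident macrophage genes and with 1 mouse left out. In all of these the permutation p of *Ccl2*, *Ccl7*, *Ccl8*, *Ccl9* and *Ccr1* was the smallest the test can give, so it cannot show how stable the call is. With a *Supt6*-KO mouse left out the adjusted p was 0.0459 in the permutation test, and that adjustment also counts *Ccl3* and *Ccl4*. Without those genes the value would be larger and was not computed. Being so close to the threshold, it is not taken as a pass.

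Deviations of mice with the same replicate number had a mean correlation of 0.15 over 4 pairs (lowest 0.0126), against -0.0317 over 16 other pairs, so the numbers were not taken to pair the mice. With a replicate block 8 of the 9 genes were called higher, with 3134 higher and 3834 lower over all genes. The low control counts of *Ccl3*, *Ccl4* and *Ccr3* limit the precision of their folds. *Supt6* passed throughout, but with the length trend its log2 fold change was -0.74, under 2-fold. No other alternative moved one of the 9 genes or *Supt6* across the threshold. With another pseudocount the levels of *Ccl3* and *Ccl4* relative to the markers moved between 2.59 and 5.17 and between 2.42 and 5.07.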
